A study of Homo sapiens with 12 samples.

Results

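The WNT pathway genes described here are the symbols of the expression table that begin with WNT, FZD, DKK or SFRP followed by a digit, together with the coreceptors LRP5 and LRP6, the receptor-level regulators LGR4, LGR5, RNF43 and ZNRF3, the Dishevelled genes DVL1, DVL2 and DVL3, the destruction complex genes AXIN1, AXIN2, APC and GSK3B, β-catenin (CTNNB1), and the nuclear factors LEF1, TCF7, TCF7L1 and TCF7L2. This rule used symbols and no measured value, and it found 55 of the 22784 symbols in the table. They comprised 17 WNT ligands, 10 Frizzled receptors, 2 coreceptors, 8 secreted antagonists, 4 receptor-level regulators, 3 Dishevelled genes, 5 genes of the destruction complex and its target, 4 TCF/LEF factors and 2 noncoding RNAs. Tests covered the genes with at least 10 normalized counts in at least 3 libraries, which were 38 of the 55 members and 14839 of all symbols. A differentially expressed gene (DEG) here had a limma adjusted p-value under 0.05, with Benjamini-Hochberg adjustment over all tested genes, and a fold change over 1.5.

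RNA-seq had been performed on SK-UT-1 cells, an established human cell line derived from a uterine leiomyosarcoma (uLMS), so all groups come from 1 cell line. The cells received the DMSO vehicle, 5 µM JQ1 or 5 µM I-BET 762 for 48 h, and both drugs are BET inhibitors (BETi), which occupy the acetyl-lysine pocket of bromodomains. The groups analysed here held 3 DMSO, 4 JQ1 and 3 I-BET 762 libraries, with replicate numbers 13 to 15, 17 to 20 and 21 to 23, while DMSO replicate 16 and I-BET 762 replicate 24 of the 12 labelled libraries were not analysed here. Strand-specific TruSeq total RNA libraries gave between 35564590 and 39658988 reads on genes per library. The labels do not say whether the libraries of a group came from separate cultures, so the p-values measure the spread between these samples, which may be technical. Values are DESeq2-normalized counts, and where no read was counted the level may still have been as high as that of 3 reads (2.73 to 3.30 normalized counts over the 10 libraries), a limit that covers counting error only.

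WNT proteins are secreted, lipid-modified ligands that bind a Frizzled receptor and, in the β-catenin branch, an LRP5 or LRP6 coreceptor. In the absence of ligand a destruction complex built on Axin and APC marks β-catenin for degradation. Ligand binding recruits Dishevelled and halts that complex, and β-catenin then reaches the nucleus and works with TCF/LEF factors. Other ligands act through branches that do not need β-catenin and that steer cell polarity and movement. In the uterus, WNT ligands such as WNT4 and WNT5A take part in forming the Müllerian duct and in the exchange between the endometrial stroma and epithelium. DKK and SFRP proteins are secreted antagonists, the former acting on the coreceptors and the latter binding WNT ligands.

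The identity of the cells was checked with marker genes. The summed normalized count of 8 smooth muscle markers was 20500 to 21136 in the DMSO libraries, 10662 to 11269 with JQ1 and 11822 to 12374 with I-BET 762. With each drug 6 of the 7 tested markers were lower DEGs, against 22.8% and 17.9% of all tested genes. The other, SMTN, was no DEG and averaged 2324 in DMSO control cells, 2644 with JQ1 and 2657 with I-BET 762. Among the defining markers, DES averaged 187 normalized counts in DMSO control cells and 7.79 with JQ1, and MYOCD was at or under the limit that a count of 0 allows in every library. The summed count of 5 epithelial markers, KRT19 and KRT18 foremost, was 1212 to 1271 in DMSO control cells, 511 to 602 with JQ1 and 497 to 544 with I-BET 762. The epithelial marker CDH1 was at or under that limit with I-BET 762, and the immune marker PTPRC in every group. Immune and endothelial markers summed to at most 37.0 and 7.396 normalized counts in any library. Whether these shifts contribute to the changes of the WNT pathway genes was not tested. Within the JQ1 group, replicates 17 and 19 lay on one side of replicates 18 and 20 in 14 of the 38 tested members (36.8%). The share over all tested genes was 37.4%. This split was noticed in the data, and the labels do not name it. Whether these shares exceed those of a random order of libraries was not tested. The chi-square per gene was 5.39 between replicates 17 and 19. It was 21.7 between 18 and 20, within the 12.6 to 22.2 of the pairs across the split. In such bulk samples, fewer cells of a type and less RNA per cell cannot be told apart.

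Both inhibitors changed ligands and Frizzled receptors in both directions, while most intracellular members stayed under the fold threshold. With JQ1, 17 of the 38 tested members (44.7%) were DEGs, 7 higher and 10 lower, against 36.1% of all tested genes, of which 13.3% were higher and 22.8% lower. With I-BET 762, 13 members (34.2%) were DEGs, 7 higher and 6 lower, against 26.9% of all tested genes, of which 8.96% were higher and 17.9% lower. The median absolute log2 fold change was 0.57 for the tested members and 0.43 for all tested genes with JQ1, and 0.44 and 0.33 with I-BET 762. The share of higher DEGs among the members was thus 18.4% in both comparisons, and that of lower DEGs 26.3% with JQ1 and 15.8% with I-BET 762. Among these DEGs, FZD8 and WNT9A met the filter only with the treated libraries counted, and WNT5A only with the DMSO libraries counted. At the adjusted p alone, JQ1 gave 14 higher and 16 lower members, against 36% and 35.6% of all tested genes (71.7% together), and I-BET 762 gave 14 higher and 14 lower, against 29.9% and 31.3% (61.1% together).

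The DEGs were unevenly spread along the pathway. Among the 24 tested ligands, receptors, coreceptors and antagonists, 15 (62.5%) were DEGs with JQ1 and 13 (54.2%) with I-BET 762. Among the 12 tested Dishevelled, destruction complex and TCF/LEF genes, 1 (8.33%) was a DEG with JQ1 and 0 with I-BET 762. The shares over all tested genes were 36.1% and 26.9%. The contrast was smaller at the adjusted p alone, where the 24 genes gave 21 (87.5%) and 20 (83.3%). The 12 genes then gave 7 (58.3%) and 6 (50%), against 71.7% and 61.1% of all tested genes. For the 12 genes with I-BET 762, limma gave an unadjusted p under 0.05 in 6, and limma-voom on the recovered reads also called 0. The JQ1 and DMSO control libraries did not overlap in 30 members, 14 higher and 16 lower, against 68.4% of all tested genes, 34.1% higher and 34.3% lower. For I-BET 762 the number was also 30, 15 higher and 15 lower, against 71% of all tested genes, 34.8% higher and 36.2% lower.

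**Figure D1:**
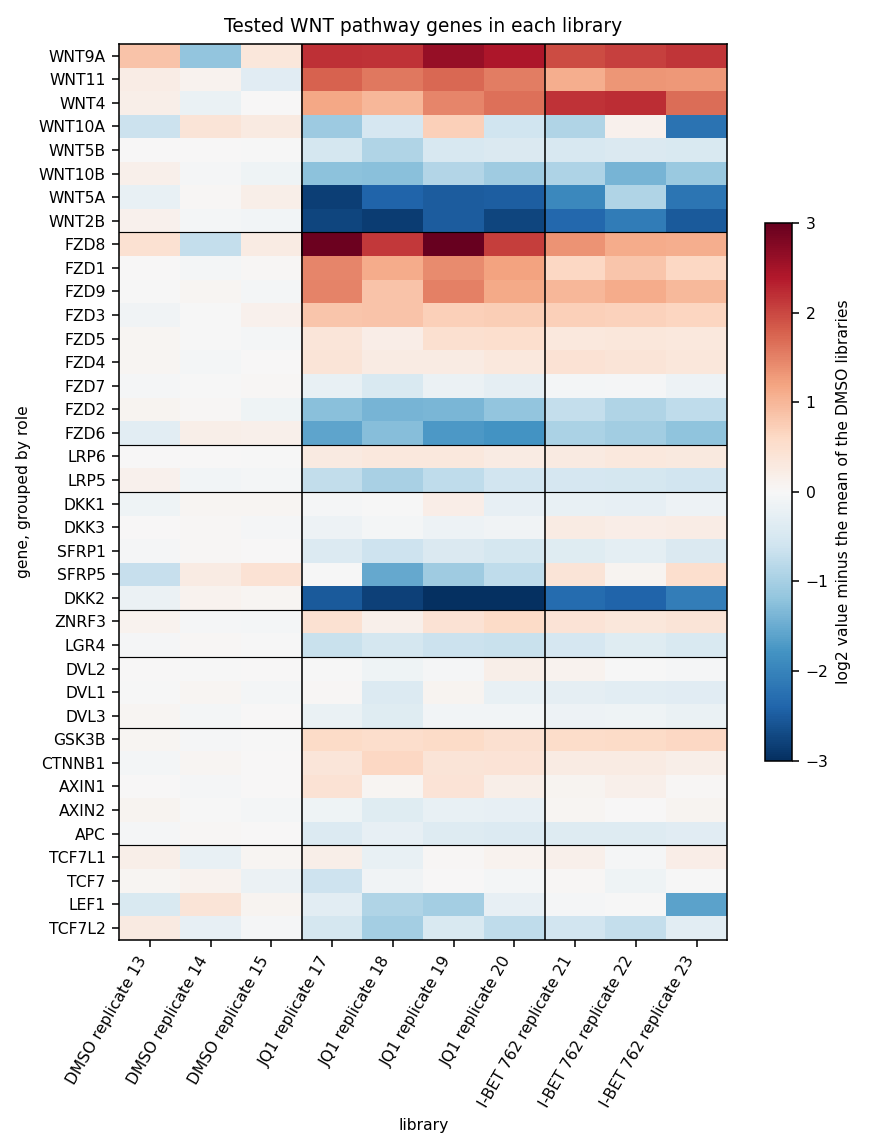
Log2 expression of the 38 tested WNT pathway genes (rows, grouped by role with horizontal lines) in the 10 libraries (columns), shown as the difference from the mean of the 3 DMSO libraries, red for higher and blue for lower. WNT9A, WNT11, WNT4 and FZD8 are red and WNT2B, WNT5A and DKK2 are blue in all 7 treated libraries, while the rows of the Dishevelled genes and the destruction complex are pale.

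The risers among the ligands were the same 3 genes with both drugs. WNT4 (chr1:22117313-22143969, minus strand, GRCh38), needed for Müllerian duct development, measured 19.4, 14.8 and 17.3 normalized counts in the DMSO libraries, 39.6, 34.8, 49.02 and 55.8 with JQ1 and 80.7, 83.2 and 57.1 with I-BET 762. All 7 treated libraries lay above the 3 controls, and the I-BET 762 libraries were also above the JQ1 libraries. WNT4 rose by 1.32 ± 0.22 (SE, adjusted p = 5.08e-05) on the log2 scale under JQ1 and rose by 2.03 ± 0.23 (SE, adjusted p = 1.78e-06) under I-BET 762.

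WNT11 (chr11:76186325-76210736, minus strand), a ligand known mostly for the β-catenin-independent branch, measured 30.02, 27.7 and 20.02 normalized counts in DMSO control cells, 90.1, 78.3, 86.04 and 76.1 with JQ1 and 55.1, 65.2 and 63.99 with I-BET 762. The 3 groups did not overlap, with JQ1 highest. WNT11 rose by 1.65 ± 0.18 (SE, adjusted p = 4.27e-07) on the log2 scale under JQ1 and rose by 1.23 ± 0.19 (SE, adjusted p = 3.72e-05) under I-BET 762. WNT9A (chr1:227918656-227947932, minus strand), a ligand with known roles in joint formation, measured 14.5, 2.77 and 10.01 normalized counts in DMSO control cells, 38.5, 38.1, 52.02 and 45.6 with JQ1 and 32.5, 35.1 and 37.4 with I-BET 762. No treated library overlapped a control, and the DMSO values themselves spread widely, with replicate 14 lowest. With that value the DMSO libraries alone would not have met the filter, so WNT9A was tested through its treated libraries. WNT9A rose by 2.35 ± 0.36 (SE, adjusted p = 2.6e-05) on the log2 scale under JQ1 and rose by 2.06 ± 0.39 (SE, adjusted p = 0.000275) under I-BET 762, and these log2 fold changes were 1.76 and 1.46 without DMSO replicate 14.

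WNT2B, WNT5A and WNT10B fell with both inhibitors. WNT2B (chr1:112466541-112530165, plus strand), a ligand of the β-catenin branch, measured 185, 164 and 161 normalized counts in DMSO control cells, 24.2, 22.8, 29.01 and 24.3 with JQ1 and 32.5, 39.1 and 28.5 with I-BET 762. Every treated library was far below every control. WNT2B fell by 2.71 ± 0.17 (SE, adjusted p = 1.05e-09) on the log2 scale under JQ1 and fell by 2.32 ± 0.19 (SE, adjusted p = 3.29e-08) under I-BET 762. Its exons share 2665 bases with those of ST7L on the opposite strand, and whether the counting used strand is not given in the sources used here. ST7L itself had a log2 fold change of 0.05 ± 0.06 (SE, adjusted p = 0.485) with JQ1 and 0.06 ± 0.07 (SE, adjusted p = 0.459) with I-BET 762, so this partner did not pass the test in either comparison. In all, 14 of the 38 tested members share exon bases with a gene on the opposite strand. They include FZD8 with 318 bases, TCF7L2 with 300, LEF1 with 279, DKK1 with 227, TCF7 with 210, WNT11 with 204 and FZD6 with 138, and DVL1, GSK3B, LGR4 and WNT4 with 13 to 55. For these the part of reads from the opposite strand was not tested.

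WNT5A (chr3:55465715-55490539, minus strand), the best known ligand of the β-catenin-independent branch, measured 18.4, 22.2 and 24.6 normalized counts in DMSO control cells, 2.198, 3.26, 3.001 and 3.04 with JQ1 and 4.92, 11.03 and 3.94 with I-BET 762. With JQ1 all 4 libraries held at most 3 reads, or 11 in all, and the summed reads per size factor were 7.56 times higher in the DMSO group (95% exact counting interval 3.97 to 15.8). The fitted log2 fold change depends on the added count in such a gene, and it was -2.55 ± 0.40 (SE, adjusted p = 3.15e-05) with JQ1, or -1.76 with a pseudocount of 5. With I-BET 762 the log2 fold change of WNT5A was -1.68 ± 0.43 (SE, adjusted p = 0.00314), and replicate 22 was the highest of its group. WNT10B (chr12:48965340-48971735, minus strand), a ligand of the β-catenin branch, measured 224, 196 and 183 normalized counts in DMSO control cells, 84.6, 82.7, 108 and 94.3 with JQ1 and 105, 75.2 and 91.6 with I-BET 762. Treated and control libraries were apart, while the treated groups overlapped each other. WNT10B fell by 1.11 ± 0.14 (SE, adjusted p = 3.94e-06) on the log2 scale under JQ1 and fell by 1.15 ± 0.15 (SE, adjusted p = 9.91e-06) under I-BET 762.

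WNT5B (chr12:1529891-1647212, plus strand), closely related to WNT5A, was the most abundant ligand per length in every group. It measured 1055, 1068 and 1040.2 normalized counts in DMSO control cells, 726, 561, 756 and 775 with JQ1 and 759.6, 777 and 772 with I-BET 762. All treated libraries were below the controls, and JQ1 replicate 18 was the lowest. The log2 fold change of WNT5B was -0.59 ± 0.09 (SE, adjusted p = 2.09e-05) with JQ1, just past the 1.5-fold threshold, and -0.45 ± 0.10 (SE, adjusted p = 0.000703) with I-BET 762, short of it. The JQ1 call was lost without DMSO replicate 14, at -0.58, and without JQ1 replicate 18, at -0.49. WNT10A, the last of the 8 tested ligands, measured 4.84, 11.1 and 10.01 in DMSO control cells, 3.30, 5.44, 14.01 and 5.07 with JQ1 and 3.94, 9.02 and 0.98 with I-BET 762, and the groups overlapped. Its log2 fold changes of -0.38 ± 0.58 (SE, adjusted p = 0.572) and -0.995 ± 0.62 (SE, adjusted p = 0.174) did not pass the test.

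The remaining 9 ligands stayed under the filter in these cells. WNT6 reached 10.01 normalized counts in 1 DMSO library, and WNT1, WNT16, WNT2 and WNT7A never exceeded 3 reads. WNT3 and WNT7B peaked at 7.69 and 4.62 normalized counts. WNT3A held 1 to 7 reads in the DMSO libraries and 0 in all 7 treated libraries, each of which allows up to 3 reads. WNT8B held 3 to 7 reads in the DMSO libraries, 0 in the 4 JQ1 libraries and 2 to 3 with I-BET 762. None of these ligands was tested.

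Frizzled receptors, which bind WNT ligands through an extracellular cysteine-rich domain, changed in both directions. All 9 tested Frizzleds had an adjusted p under 0.05 with JQ1, against 71.7% of all tested genes. With each drug 6 of the 9 (66.7%) were DEGs, 4 higher and 2 lower. The shares of DEGs over all tested genes were 36.1% with JQ1 and 26.9% with I-BET 762. The risers were FZD1, FZD3, FZD8 and FZD9. The 250 bases before the RefSeq start of FZD1, FZD8 and FZD9 are shown because these genes rose together with both drugs, followed by the windows before both RefSeq starts of WNT2B, one of the strongest fallers. Each is written 5′ to 3′ along the strand of the gene, from RefSeq on GRCh38.p14, with capitals marking CCAAT or its reverse complement ATTGG, and TATAAA.
FZD1, chr7:91264183-91264432, plus strand: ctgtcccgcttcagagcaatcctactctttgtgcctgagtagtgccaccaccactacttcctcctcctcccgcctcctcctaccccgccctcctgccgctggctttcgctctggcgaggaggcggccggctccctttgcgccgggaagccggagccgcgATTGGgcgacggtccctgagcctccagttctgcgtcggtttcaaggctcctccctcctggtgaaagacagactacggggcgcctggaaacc
FZD8, chr10:35642297-35642546, minus strand: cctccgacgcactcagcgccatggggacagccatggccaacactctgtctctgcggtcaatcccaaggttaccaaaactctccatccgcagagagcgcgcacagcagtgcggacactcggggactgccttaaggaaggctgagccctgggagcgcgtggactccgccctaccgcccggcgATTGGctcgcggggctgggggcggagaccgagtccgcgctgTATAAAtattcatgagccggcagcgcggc
FZD9, chr7:73433528-73433777, plus strand: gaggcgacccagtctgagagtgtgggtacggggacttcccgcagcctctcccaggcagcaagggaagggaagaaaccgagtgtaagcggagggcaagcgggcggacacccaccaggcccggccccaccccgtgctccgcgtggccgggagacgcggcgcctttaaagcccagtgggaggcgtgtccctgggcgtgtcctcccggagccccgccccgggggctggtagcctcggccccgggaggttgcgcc
WNT2B, first start, chr1:112466291-112466540, plus strand: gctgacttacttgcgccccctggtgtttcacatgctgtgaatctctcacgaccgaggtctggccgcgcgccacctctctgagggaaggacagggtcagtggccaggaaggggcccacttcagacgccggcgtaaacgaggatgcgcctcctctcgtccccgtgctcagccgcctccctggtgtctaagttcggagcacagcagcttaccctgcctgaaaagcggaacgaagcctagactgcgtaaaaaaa
WNT2B, second start, chr1:112508715-112508964, plus strand: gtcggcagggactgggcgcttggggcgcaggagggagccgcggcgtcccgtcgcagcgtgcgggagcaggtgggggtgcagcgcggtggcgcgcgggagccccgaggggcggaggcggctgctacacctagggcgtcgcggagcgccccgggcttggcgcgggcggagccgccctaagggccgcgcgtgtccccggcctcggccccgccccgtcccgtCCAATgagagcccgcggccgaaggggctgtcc

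FZD1 and FZD8 both hold ATTGG, 91 and 70 bases before the start, FZD8 also holds TATAAA at 29 bases before it, and FZD9 holds neither. The downstream start of WNT2B has CCAAT at 32 bases before it, and the upstream start has none of these letters. Gene-level counts do not tell the starts of WNT2B apart. RefSeq promoter windows were matched for 26 of the 38 tested members, giving 33 windows with a median GC content of 68.8%, against 58.0% over all 35116 windows. No window was matched for WNT10B, WNT11, FZD2, FZD3, FZD6, FZD7, DKK2, DKK3, SFRP1, LRP6, ZNRF3 and AXIN2. On either strand, CCAAT was present in 33.3% of the members' windows and 32.0% of all, and TATAAA in 12.1% and 10.7%. The letters CTTTGA, the core of the site that TCF/LEF factors bind, were present in 1 of the 33 windows, that of DKK1, and in 11.2% of all windows.

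FZD8 (chr10:35638247-35642296, minus strand) had the largest fitted rise of the members with JQ1. It measured 11.6, 4.62 and 10.01 normalized counts in DMSO control cells, 70.3, 39.2, 75.03 and 37.5 with JQ1 and 22.6, 19.05 and 18.7 with I-BET 762. The 3 groups were fully apart, with JQ1 replicates 17 and 19 above replicates 18 and 20. With their lowest at 4.62, the DMSO libraries alone would not have met the filter, so FZD8 was tested through its treated libraries. FZD8 rose by 2.55 ± 0.33 (SE, adjusted p = 3.32e-06) on the log2 scale under JQ1 and rose by 1.19 ± 0.35 (SE, adjusted p = 0.00751) under I-BET 762. FZD1 (chr7:91264433-91271326, plus strand) measured 194, 183 and 196 normalized counts in DMSO control cells, 524, 411, 507 and 438 with JQ1 and 293, 342 and 293 with I-BET 762. Its groups were also fully apart, in the same order. FZD1 rose by 1.29 ± 0.10 (SE, adjusted p = 8.95e-09) on the log2 scale under JQ1 and rose by 0.69 ± 0.11 (SE, adjusted p = 3.74e-05) under I-BET 762.

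FZD9 (chr7:73433778-73436120, plus strand) measured 191, 202 and 187 normalized counts in DMSO control cells, 543, 348, 551 and 427 with JQ1 and 388, 417 and 377 with I-BET 762. Every treated library exceeded every control, the treated groups overlapped, and JQ1 replicates 17 and 19 again stood above 18 and 20. FZD9 rose by 1.25 ± 0.13 (SE, adjusted p = 3.33e-07) on the log2 scale under JQ1 and rose by 1.02 ± 0.14 (SE, adjusted p = 1.07e-05) under I-BET 762. FZD3, a receptor known for axon guidance and planar cell polarity, measured 306, 324 and 360.4 normalized counts in DMSO control cells, 583, 598, 543 and 547 with JQ1 and 541, 530.4 and 513 with I-BET 762. Treated and control libraries did not overlap, and the JQ1 libraries lay just above the I-BET 762 libraries. FZD3 rose by 0.78 ± 0.08 (SE, adjusted p = 1.32e-07) on the log2 scale under JQ1 and rose by 0.68 ± 0.08 (SE, adjusted p = 2.59e-06) under I-BET 762, and the latter dropped under the fold threshold, to 0.58, after rescaling to equal totals.

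FZD2 and FZD6 fell with both drugs. FZD2 (chr17:44557484-44561262, plus strand), a receptor for WNT5A among other ligands, measured 829, 808 and 723 normalized counts in DMSO control cells, 326, 296, 305 and 346 with JQ1 and 478, 419 and 464 with I-BET 762. The order from control to I-BET 762 to JQ1 held without overlap. FZD2 fell by 1.30 ± 0.08 (SE, adjusted p = 8.47e-10) on the log2 scale under JQ1 and fell by 0.79 ± 0.09 (SE, adjusted p = 1.17e-06) under I-BET 762. FZD6, a receptor of the planar polarity branch, measured 227, 319.9 and 316 normalized counts in DMSO control cells, 94.5, 118, 85.04 and 81.1 with JQ1 and 148, 138 and 123 with I-BET 762. Its groups followed the same order without overlap. FZD6 fell by 1.59 ± 0.15 (SE, adjusted p = 1.15e-07) on the log2 scale under JQ1 and fell by 1.06 ± 0.16 (SE, adjusted p = 3.74e-05) under I-BET 762.

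The other tested Frizzleds moved by less than 1.5-fold. FZD5 averaged 634 ± 27.1 (SD, n = 3) normalized counts in DMSO control cells, 830.1 ± 75.4 (SD, n = 4) under JQ1 and 794 ± 11.7 (SD, n = 3) after I-BET 762, with log2 fold changes of 0.39 and 0.33. FZD4 averaged 331 ± 12.9 (SD, n = 3), 407 ± 18.7 (SD, n = 4) and 433 ± 15.2 (SD, n = 3) in the same order, with log2 fold changes of 0.30 and 0.39. Its exons share 1399 bases with PRSS23 on the opposite strand, which had log2 fold changes of -1.72 and -1.43. FZD7 averaged 522 ± 13.8 (SD, n = 3), 429 ± 34.6 (SD, n = 4) and 495 ± 20.2 (SD, n = 3), with log2 fold changes of -0.29 and -0.08, of which the first had an adjusted p of 0.00355 and the second 0.435. FZD10, under the filter, ranged from 0.91 to 16.5 normalized counts over all libraries. The noncoding neighbours FZD10-AS1 and FZD4-DT peaked at 0.91 and 5.81 normalized counts and were not tested.

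Per length of exon, the Frizzled repertoire was reordered while its sum moved little. The summed level of the 10 Frizzleds was 665 ± 11.9 normalized counts per kb of exon (SD, n = 3) in DMSO control cells, 699 ± 67.3 (SD, n = 4) under JQ1 and 691 ± 17.1 (SD, n = 3) after I-BET 762, so the JQ1 libraries spread more widely than this mean moved. FZD2 led in DMSO control cells with 31.3% of that sum and held 12.1% with JQ1 and 17.4% with I-BET 762. FZD9 ranked 4 in DMSO control cells with 12.4% and ranked 1 with both drugs, at 28.3% and 24.3%. FZD6 went from 10.6% of the sum to 3.39% and 4.85%, and FZD1 from 4.17% to 9.75% and 6.497%. FZD8 remained a minor receptor by this measure, at 0.33%, 1.93% and 0.72% of the sum.

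The ligand repertoire shrank per length but kept its leader. The 17 ligands summed to 371 ± 7.93 normalized counts per kb (SD, n = 3) in DMSO control cells, 265 ± 31.8 (SD, n = 4) under JQ1 and 276 ± 0.76 (SD, n = 3) after I-BET 762, with no overlap between treated and control libraries. WNT5B made up 67.0% of the control sum and 62.7% of the JQ1 sum. WNT10B held rank 2 in each group, with 20.8% in DMSO control cells, 13.5% with JQ1 and 12.6% with I-BET 762. WNT2B went from rank 3 to ranks 7 and 6, and WNT11, at rank 4 in the controls with 2.94%, took rank 3 with 13.3% and 9.37%.

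**Figure D2:**
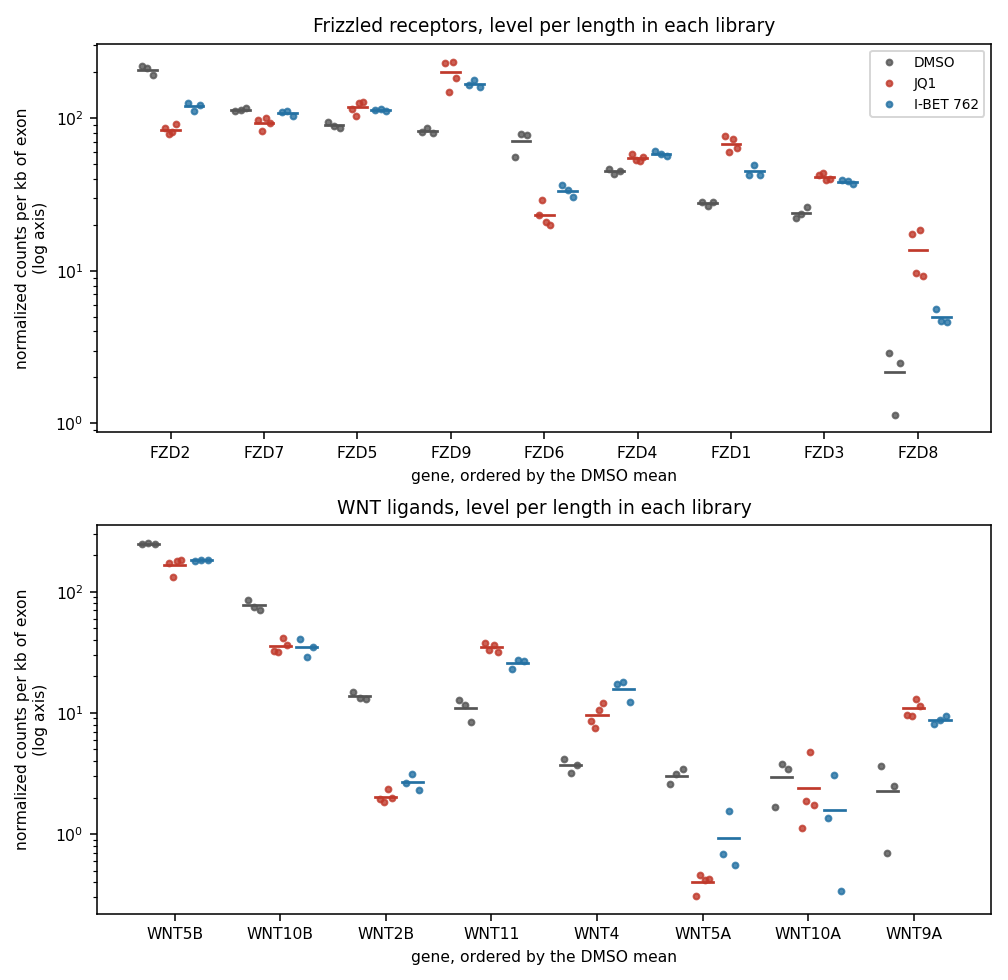
Level per length of the 9 tested Frizzleds (top) and the 8 tested WNT ligands (bottom), in normalized counts per kb of exon on a log axis, with 1 point per library and a short line at the mean of each group (3 DMSO, 4 JQ1 and 3 I-BET 762 libraries). FZD9 overtakes FZD2 in both treated groups, and WNT5B stays highest among the ligands in each group.

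The coreceptors LRP5 and LRP6, single-pass proteins that carry the β-catenin signal together with a Frizzled, had opposite signs. LRP5 (chr11:68312591-68449275, plus strand) measured 2186, 1873 and 1916 normalized counts in DMSO control cells, 1196, 1018, 1174 and 1339 with JQ1 and 1402, 1367 and 1329.9 with I-BET 762. Every treated library was below every control. The log2 fold change of LRP5 was -0.76 ± 0.08 (SE, adjusted p = 3.38e-07) with JQ1, a DEG, and -0.54 ± 0.08 (SE, adjusted p = 4.54e-05) with I-BET 762, under the fold threshold. LRP6 measured 4779 to 4859 normalized counts in DMSO control cells, 5756 to 6031 with JQ1 and 5818 to 5974 with I-BET 762. The groups were tight and apart from the controls, at a log2 fold change of 0.29 ± 0.04 (SE, adjusted p = 9.29e-06) and 0.29 ± 0.04 (SE, adjusted p = 2.83e-05), under the fold threshold with both drugs.

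Among the secreted antagonists, DKK2 had the largest fitted fall of the members with JQ1. DKK2 (chr4:106921802-107283806, minus strand), which binds LRP5 and LRP6, measured 233, 283 and 273 normalized counts in DMSO control cells, 45.1, 36.99, 31.01 and 20.3 with JQ1 and 52.2, 49.1 and 61.03 with I-BET 762. All treated libraries were far below the controls, and the JQ1 libraries lay below those with I-BET 762. DKK2 fell by 2.99 ± 0.21 (SE, adjusted p = 3.86e-09) on the log2 scale under JQ1 and fell by 2.26 ± 0.23 (SE, adjusted p = 4.47e-07) under I-BET 762. The better known antagonist DKK1 measured 424, 482 and 478 normalized counts in DMSO control cells, 452, 454, 528 and 388 with JQ1 and 393, 390 and 417 with I-BET 762. Its JQ1 and control libraries overlapped, and neither log2 fold change, -0.02 ± 0.09 (SE, adjusted p = 0.83) nor -0.20 ± 0.10 (SE, adjusted p = 0.0923), passed the test.

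SFRP1, a decoy that binds WNT ligands, was the most abundant antagonist per length in every group, at 55.6% of the summed level in DMSO control cells, 51.7% with JQ1 and 52.8% with I-BET 762. It averaged 2435 ± 67.8 (SD, n = 3) normalized counts in DMSO control cells, 1721 ± 113 (SD, n = 4) under JQ1 and 1896 ± 94.4 (SD, n = 3) after I-BET 762. Its log2 fold changes of -0.50 ± 0.06 (SE, adjusted p = 1.11e-06) and -0.36 ± 0.06 (SE, adjusted p = 0.000117) passed the adjusted p but not the fold threshold. DKK3, a divergent DKK family member, averaged 1569 ± 39.6 (SD, n = 3), 1449 ± 45.4 (SD, n = 4) and 1833 ± 23.7 (SD, n = 3) in the same order of groups. Its log2 fold changes were -0.12 ± 0.05 (SE, adjusted p = 0.0435) and 0.22 ± 0.05 (SE, adjusted p = 0.0015), both under the fold threshold and of opposite sign, and its exons share 5681 bases with USP47 on the opposite strand, which had 0.43 and 0.31.

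SFRP5, a related decoy, was low and variable. It measured 10.7, 21.3 and 24.6 normalized counts in DMSO control cells, 17.6, 5.44, 8.004 and 10.1 with JQ1 and 23.6, 19.05 and 25.6 with I-BET 762. JQ1 replicate 17 lay within the control range, and the I-BET 762 libraries overlapped the controls. The log2 fold changes were -0.84 ± 0.38 (SE, adjusted p = 0.0545) with JQ1 and 0.33 ± 0.40 (SE, adjusted p = 0.498) with I-BET 762, and neither passed the test. SFRP2, SFRP4 and DKK4 never exceeded 3 reads in a library. The 8 antagonists together summed to 925 ± 37.3 normalized counts per kb (SD, n = 3) in DMSO control cells, 704 ± 39.0 (SD, n = 4) under JQ1 and 759 ± 9.42 (SD, n = 3) after I-BET 762.

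LGR4 and ZNRF3 act on receptor turnover. LGR4 (chr11:27365961-27472790, minus strand), a receptor for R-spondins, which keep Frizzleds at the surface, measured 661, 698 and 679 normalized counts in DMSO control cells, 425, 468, 433 and 429 with JQ1 and 482, 527 and 498 with I-BET 762. The order from control to I-BET 762 to JQ1 held without overlap. Its log2 fold change was -0.63 ± 0.07 (SE, adjusted p = 4.72e-07) with JQ1, a DEG, and -0.44 ± 0.07 (SE, adjusted p = 8.47e-05) with I-BET 762, under the fold threshold. ZNRF3, a membrane ubiquitin ligase that removes Frizzleds, averaged 1002 ± 62.2 (SD, n = 3), 1334 ± 158 (SD, n = 4) and 1303 ± 25.4 (SD, n = 3) in the same order of groups. Its log2 fold changes of 0.41 ± 0.08 (SE, adjusted p = 0.000277) and 0.38 ± 0.09 (SE, adjusted p = 0.00119) were also under the fold threshold. The R-spondin receptor LGR5 peaked at 4.06 normalized counts, and RNF43, the partner ligase, was listed at no more than 2.96, with values that are not whole reads and with exons that overlap another annotated gene on the same strand.

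**Figure D3:**
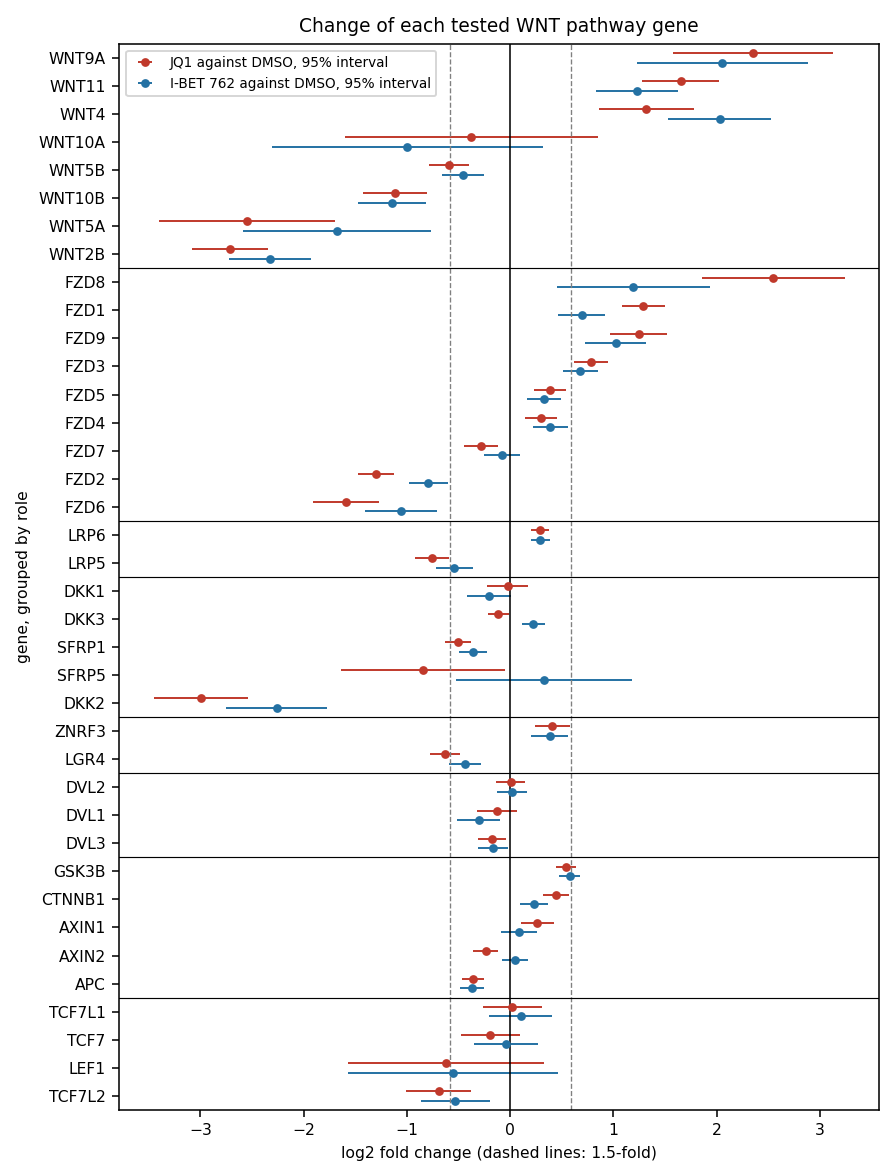
Log2 fold change of the 38 tested WNT pathway genes with JQ1 (red) and I-BET 762 (blue) against DMSO, with 95% intervals from the limma fit, grouped by role, and dashed lines at 1.5-fold. The wide changes on both sides sit among the ligands and Frizzleds and at DKK2, while the points of the Dishevelled and destruction complex genes lie between the dashed lines.

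Inside the cell, TCF7L2 was the 1 TCF/LEF factor called a DEG, with JQ1 only, and the destruction complex held 0 DEGs with either drug. TCF7L2 (chr10:112950247-113167678, plus strand), a nuclear partner of β-catenin, measured 390.3, 273 and 318 normalized counts in DMSO control cells, 223, 159, 234 and 192 with JQ1 and 218, 198 and 258 with I-BET 762. Treated and control libraries did not overlap, with DMSO replicate 14 close to the highest treated library. The log2 fold change of TCF7L2 was -0.69 ± 0.15 (SE, adjusted p = 0.000518) with JQ1, a DEG, and -0.53 ± 0.16 (SE, adjusted p = 0.0079) with I-BET 762, under the fold threshold. The JQ1 call was lost without DMSO replicate 13, at -0.56, or without JQ1 replicate 18, at -0.58. TCF7, another such partner, averaged 246 ± 26.3 (SD, n = 3) normalized counts in DMSO control cells, 217 ± 39.4 (SD, n = 4) under JQ1 and 238 ± 13.1 (SD, n = 3) after I-BET 762. TCF7L1, a member that often represses targets, averaged 129.7 ± 17.98 (SD, n = 3) in DMSO control cells, 131 ± 15.2 (SD, n = 4) under JQ1 and 139 ± 12.1 (SD, n = 3) after I-BET 762. Neither passed the test with either drug, and SKP1, the gene opposite TCF7, had log2 fold changes of 0.93 and 0.71. LEF1, an activator that β-catenin itself induces in many tissues, was low, at 2.95 to 14.8 normalized counts over all libraries, with log2 fold changes of -0.62 ± 0.45 (SE, adjusted p = 0.226) and -0.55 ± 0.48 (SE, adjusted p = 0.335).

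CTNNB1, which encodes β-catenin, measured 17144, 18602 and 17894 normalized counts in DMSO control cells, 22874, 27279, 23377 and 23931 with JQ1 and 21348, 21324 and 20335 with I-BET 762. All treated libraries exceeded the controls and the treated groups were apart. CTNNB1 had log2 fold changes of 0.44 ± 0.06 (SE, adjusted p = 4.9e-06) and 0.23 ± 0.06 (SE, adjusted p = 0.00454), under the fold threshold. GSK3B, the kinase that marks β-catenin, had mean normalized counts of 4107 ± 163 (SD, n = 3), 5984 ± 177 (SD, n = 4) and 6119 ± 179 (SD, n = 3) in the same order of groups. Its log2 fold changes of 0.54 ± 0.05 (SE, adjusted p = 2.39e-08) and 0.58 ± 0.05 (SE, adjusted p = 5.83e-08) are folds of 1.46 and 1.49, just short of the threshold. APC, the scaffold that binds β-catenin, averaged 3269.8 ± 97.9 (SD, n = 3), 2554 ± 140.3 (SD, n = 4) and 2528 ± 52.7 (SD, n = 3), with log2 fold changes of -0.36 and -0.37.

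AXIN2, both a scaffold of the complex and a classic feedback target of β-catenin, measured 6311, 5963 and 5717 normalized counts in DMSO control cells, 5459, 4643, 5169 and 5079 with JQ1 and 6211, 6015 and 6363 with I-BET 762. The JQ1 libraries lay below the controls and the I-BET 762 libraries overlapped them. AXIN2 had log2 fold changes of -0.24 ± 0.06 (SE, adjusted p = 0.0011) and 0.05 ± 0.06 (SE, adjusted p = 0.5), and its exons overlap another annotated gene on the same strand. AXIN1 averaged 1751 ± 34.6 (SD, n = 3), 2115 ± 265 (SD, n = 4) and 1856 ± 69.4 (SD, n = 3), with log2 fold changes of 0.26 and 0.08. With limma the destruction complex genes had an unadjusted p under 0.05 in 5 of 5 cases with JQ1 and 3 of 5 with I-BET 762, and limma-voom also called 0 DEGs. The Dishevelled genes DVL1, DVL2 and DVL3, which relay the signal from Frizzled, had log2 fold changes of -0.13, 0.00 and -0.18 with JQ1 and of -0.30, 0.02 and -0.17 with I-BET 762. After rescaling to equal totals the sign turned for DVL2 and TCF7L1 with JQ1 and for AXIN1, AXIN2 and DVL2 with I-BET 762, none of them a DEG. The Dishevelled genes held 0 DEGs with either drug by limma and by limma-voom, with an unadjusted p under 0.05 for 1 and 2 of the 3 genes.

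The JQ1 and I-BET 762 comparisons share the 3 DMSO libraries, so the lists compared here are not independent of each other. The 7 higher DEGs were FZD1, FZD3, FZD8, FZD9, WNT11, WNT4 and WNT9A with either drug, 100% of each list. Of the 10 lower DEGs with JQ1, 6 (60%) were also lower DEGs with I-BET 762, which is 100% of that list, namely DKK2, FZD2, FZD6, WNT10B, WNT2B and WNT5A. The 4 called with JQ1 alone were LGR4, LRP5, TCF7L2 and WNT5B. The overlap of the lists over all tested genes is not given here. With its own calls, the paper reported most DEGs of each direction as common to both drugs, so such sharing is not particular to the members. Of the 13 members called with both, 11 moved further with JQ1, the exceptions being WNT10B and WNT4, and the median absolute value was 1.59 with JQ1 and 1.19 with I-BET 762. Changes were also larger with JQ1 over all tested genes, with a median absolute log2 fold change of 0.43 against 0.33. The share of all genes called with both that moved further with JQ1 is not given here.

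JQ1 and I-BET 762 are both triazolodiazepines that carry a chlorophenyl group, JQ1 with a fused thiophene ring and a tert-butyl ester and I-BET 762 with a fused methoxybenzene ring and an ethyl amide, and they were given at the same dose and time. The direct contrast tested the 38 members, with p-values adjusted over all 14839 genes. It called 5 members DEGs, 2 higher and 3 lower with JQ1, or 13.2% against 5.31% of all tested genes, of which 1.73% were higher and 3.59% lower. At the adjusted p alone, 11 members (28.9%) differed, against 27.3% of all tested genes. The libraries of the drugs did not overlap in 16 members (42.1%), against 33.8% of all tested genes.

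FZD8 was higher with JQ1 than with I-BET 762 by 1.35 on the log2 scale (95% interval 0.66 to 2.05, adjusted p = 0.00634). FZD1 was higher with JQ1 by 0.60 on the log2 scale (95% interval 0.39 to 0.81, adjusted p = 0.000442), and the interval reaches below 1.5-fold. WNT4 was lower with JQ1, with a difference of -0.71 on the log2 scale (95% interval -1.17 to -0.25, adjusted p = 0.0247), and its rise against DMSO was thus smaller with JQ1. DKK2 was lower with JQ1, with a difference of -0.73 on the log2 scale (95% interval -1.19 to -0.28, adjusted p = 0.0193). SFRP5, which did not pass the test against DMSO with either drug, was lower with JQ1, with a difference of -1.17 on the log2 scale (95% interval -1.97 to -0.37, adjusted p = 0.0299). The call of FZD8 was lost with JQ1 replicates 18 and 20 alone, a choice made after seeing the data, at 0.90 (adjusted p = 0.102). Those of FZD1, WNT4, DKK2 and SFRP5 were lost when single libraries were left out. FZD1 lost it without JQ1 replicate 17 (0.54) or 19 (0.56) or I-BET 762 replicate 21 (0.56) or 23 (0.56). WNT4 lost it without JQ1 replicate 17 (-0.66) or 18 (-0.60) or I-BET 762 replicate 21 (-0.63) or 22 (-0.61). DKK2 lost it without JQ1 replicate 20 (-0.52) or I-BET 762 replicate 21 (-0.75) or 23 (-0.64), and SFRP5 without JQ1 replicate 18 (-0.94) or 19 (-1.10) or any single I-BET 762 library (-1.29 to -1.09). The losses of FZD1, and that of DKK2 without JQ1 replicate 20, came from the fold threshold. The other single-library losses came from the limma adjusted p, which was then 0.0522 to 0.113.

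The 4 members called against DMSO with JQ1 alone were not DEGs in the direct contrast. WNT5B differed by -0.14 on the log2 scale (95% interval -0.33 to 0.05, adjusted p = 0.275), LRP5 by -0.22 on the log2 scale (95% interval -0.38 to -0.05, adjusted p = 0.0541) and TCF7L2 by -0.16 on the log2 scale (95% interval -0.47 to 0.15, adjusted p = 0.45). LGR4 differed by -0.20 on the log2 scale (95% interval -0.34 to -0.05, adjusted p = 0.0437), which passed the adjusted p but not the fold threshold. FZD2 was lower with JQ1, with a difference of -0.51 on the log2 scale (95% interval -0.68 to -0.34, adjusted p = 0.000341), and FZD6 with a difference of -0.53 on the log2 scale (95% interval -0.86 to -0.21, adjusted p = 0.0162), also short of 1.5-fold. DKK3 was lower with a difference of -0.34 on the log2 scale (95% interval -0.44 to -0.24, adjusted p = 0.000125) and AXIN2 with a difference of -0.29 on the log2 scale (95% interval -0.40 to -0.17, adjusted p = 0.0014), and CTNNB1 was higher by 0.21 on the log2 scale (95% interval 0.09 to 0.34, adjusted p = 0.0146).

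For the other 27 members the contrast missed the adjusted p, which does not show that the drugs act alike. The intervals were narrow for the abundant genes, as for LRP6 at -0.09 to 0.08 and GSK3B at -0.13 to 0.06. They were wide for the low genes, as for WNT10A at -0.61 to 1.84 and LEF1 at -1.02 to 0.88. For WNT5A the unadjusted interval ran from -1.73 to -0.02, and for WNT9A from -0.48 to 1.07.

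**Figure D4:**
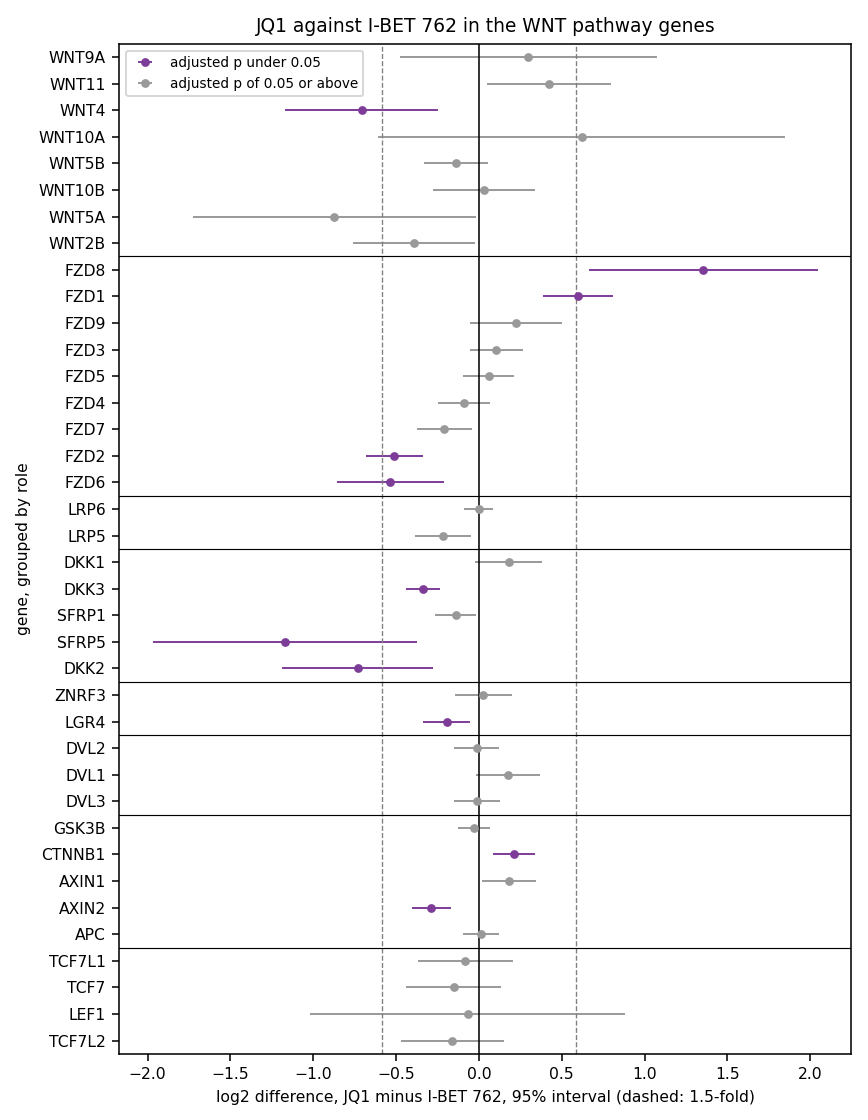
Log2 difference between JQ1 and I-BET 762 libraries for the 38 tested WNT pathway genes, with 95% intervals from the limma fit, purple where the adjusted p was under 0.05, and dashed lines at 1.5-fold. FZD8 lies farthest to the right and SFRP5 farthest to the left, and the points of the intracellular genes lie between the dashed lines.

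The wider pathway was read from 6 lists of genes beyond the members, holding 77 further genes of which 67 were tested. With JQ1, 31 of them (46.3%) were DEGs, 7 higher and 24 lower (10.4% and 35.8%), against 36.1% of all tested genes, 13.3% higher and 22.8% lower. With I-BET 762, 21 (31.3%) were DEGs, 2 higher and 19 lower (2.99% and 28.4%), against 26.9% of all, 8.96% higher and 17.9% lower. The median log2 fold change was -0.27 and -0.18, against 0.01 and 0.00 over all tested genes. Lower DEGs outnumbered higher ones in these lists, as they did over all tested genes.

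In the list of ligand secretion and processing, 3 of the 4 tested genes (75%) fell with both drugs, against 22.8% of all tested genes with JQ1 and 17.9% with I-BET 762. WLS, the carrier that brings lipidated WNT proteins to the cell surface, averaged 811 ± 36.4 (SD, n = 3) normalized counts in DMSO control cells, 237 ± 24.4 (SD, n = 4) under JQ1 and 255.5 ± 7.87 (SD, n = 3) after I-BET 762. WLS fell by 1.78 ± 0.09 (SE, adjusted p = 5.28e-11) on the log2 scale under JQ1 and fell by 1.66 ± 0.09 (SE, adjusted p = 7.31e-10) under I-BET 762. PORCN, the acyltransferase that lipidates WNT proteins, averaged 194 ± 6.73 (SD, n = 3), 118 ± 15.4 (SD, n = 4) and 99.8 ± 13.9 (SD, n = 3), with log2 fold changes of -0.73 ± 0.13 (SE, adjusted p = 0.000159) and -0.96 ± 0.14 (SE, adjusted p = 2.91e-05). NOTUM, a secreted enzyme that strips the lipid off again, averaged 33.5 ± 5.93 (SD, n = 3), 13.9 ± 4.81 (SD, n = 4) and 9.22 ± 2.95 (SD, n = 3), with log2 fold changes of -1.26 ± 0.33 (SE, adjusted p = 0.00283) and -1.78 ± 0.35 (SE, adjusted p = 0.00038).

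Among other extracellular and receptor modulators, 6 of the 9 tested genes (66.7%) fell with each drug, against 22.8% and 17.9% of all tested genes. The R-spondin RSPO4 had log2 fold changes of -1.60 and -1.73, the R-spondin receptor LGR6 -1.71 and -1.33, and the secreted inhibitor WIF1 -2.02 and -1.33. The others were RSPO1, at -1.18 and -0.80, and the DKK receptors KREMEN1 and KREMEN2, at -1.19 and -1.69 with JQ1 and at -0.68 and -1.01 with I-BET 762, all named after their values were seen. LGR6 was low, at 13.9 to 19.4 normalized counts in DMSO control cells and at most 6.09 with JQ1 and 8.02 with I-BET 762. It met the filter only through the DMSO libraries, where it is high. In the β-catenin-independent branch, 1 of 14 tested genes rose and 6 fell with JQ1, and 1 rose and 2 fell with I-BET 762. The share of DEGs in this list was 50% and 21.4%, against 36.1% and 26.9% of all tested genes. VANGL2 and CELSR3, membrane proteins of planar cell polarity, had log2 fold changes of -1.85 and -1.27 with JQ1 and of -1.26 and -0.91 with I-BET 762. DAAM1, a formin that links Dishevelled to actin, rose by 0.66 and 0.73 on the log2 scale.

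Among further destruction complex and Dishevelled partners, 2 of 15 tested genes were DEGs with JQ1 (13.3%) and 1 with I-BET 762 (6.67%), against 36.1% and 26.9% of all tested genes. AMER1, a membrane-bound partner of APC, fell with both, at -1.10 and -0.74, and the other call with JQ1, APC2, rose by 1.26 on the log2 scale and was named after its values were seen. Among nuclear partners, 5 of 14 fell with each drug and no other was called, which is 35.7% DEGs against 36.1% and 26.9% of all tested genes, and against 22.8% and 17.9% for lower DEGs alone. The corepressors TLE2 and TLE4 had log2 fold changes of -1.66 and -1.29 with JQ1 and of -1.47 and -0.81 with I-BET 762, and the β-catenin cofactor PYGO1 had -1.12 and -1.07. Named after their values were seen, BCL9 fell with both drugs, at -0.93 and -0.66, and the other calls were JUP with JQ1 alone, at -0.93, and BCL9L with I-BET 762 alone, at -0.60.

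The list of known β-catenin targets, which shares AXIN2, LEF1, LGR5, RNF43 and ZNRF3 with the members, was divided. It also shares NOTUM, a lower DEG with both drugs, with the list of ligand secretion, and APCDD1 with the extracellular modulators. The counts of these lists are therefore not separate. Of its 16 tested genes, 5 rose and 4 fell with JQ1, and 1 rose and 3 fell with I-BET 762. These are 56.3% and 25% of the list, against 36.1% and 26.9% of all tested genes, so the share with I-BET 762 was near the background. JAG1, a Notch ligand, averaged 1076 ± 61.4 (SD, n = 3) normalized counts in DMSO control cells, 205 ± 45.9 (SD, n = 4) under JQ1 and 284 ± 16.9 (SD, n = 3) after I-BET 762, with log2 fold changes of -2.41 ± 0.13 (SE, adjusted p = 1.91e-10) and -1.92 ± 0.14 (SE, adjusted p = 1.5e-08). The ephrin receptors EPHB2 and EPHB3 moved apart, EPHB2 at -1.25 and -1.31 and EPHB3 at 1.23 and 0.83. Of the JQ1 calls named after their values were seen, the receptor-like inhibitor BAMBI, the cyclin gene CCND1, the AP-1 subunit FOSL1 and the transcription factor MYC had log2 fold changes of 1.13, 1.12, 0.89 and 1.002, and TNFRSF19 had -0.77. With I-BET 762, BAMBI, CCND1, FOSL1 and MYC had 0.35, 0.58, 0.21 and 0.54, all under the fold threshold. Of these, CCND1 and MYC passed the adjusted p. NKD1, a feedback inhibitor induced by β-catenin, had log2 fold changes of 0.24 ± 0.09 (SE, adjusted p = 0.0176) and 0.34 ± 0.09 (SE, adjusted p = 0.00462), under the fold threshold, and SP5, another direct target, peaked at 6.47 normalized counts and was not tested.

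**Figure D5:**
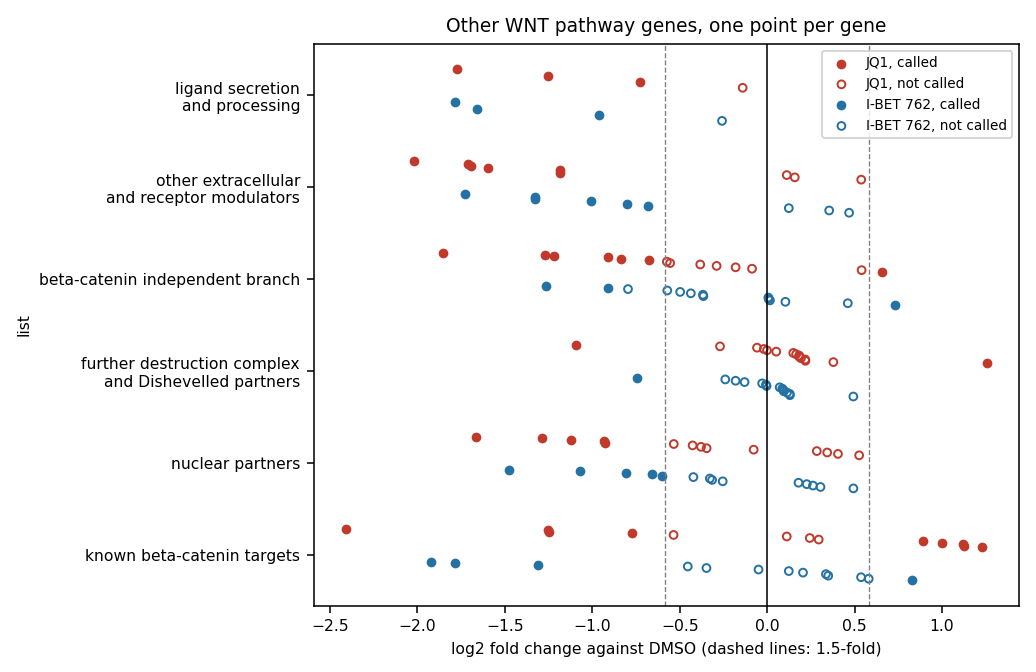
Log2 fold change against DMSO of the tested genes in the 6 further WNT pathway lists, with 1 point per gene, red for JQ1 and blue for I-BET 762, filled where the gene was a DEG, and dashed lines at 1.5-fold. In the list of ligand secretion all 4 points lie left of 0 with both drugs, while the points of the known targets spread to both sides.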

How the data were processed

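RNA from SK-UT-1 cells was sequenced on an Illumina NovaSeq instrument. According to the study's methods and processing notes, reads were checked with FastQC 0.73, passed through Trimmomatic, mapped with HISAT2 2.2.1 on hg38, counted per gene with featureCounts 2.0.3 and normalized with DESeq2 by the authors, who excluded outlier samples. The values were deposited as log2(normalized count + 1), with 1 row per symbol. The strand setting of the counting is not given in the sources used here. Whole reads were recovered from them for 99.7% to 99.8% of values, within a tolerance of 0.02 read, and no replicate pair was identical.

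Deposited log2 values of all 10 libraries were fitted together with limma 3.58.1 (R 4.3.3), with an intensity trend and 1 coefficient per group. The p-values were adjusted by the Benjamini-Hochberg method over 14839 genes, and the fit was first tested on simulated data. A fold change is on the log2(value + 1) scale, which understates changes of low genes. Per-length levels divide normalized counts by the exon length of each gene in a GENCODE annotation of hg38, and promoter windows came from RefSeq (GRCh38.p14). Tables used pandas 2.3.3 and numpy 2.4.6.

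The members and the 6 further lists were chosen with earlier results of these data known. All tested members are described, by library where they were DEGs or central to the pathway. From each further list, up to 3 DEGs that rose and 3 that fell with both drugs were named, ranked by the smaller of their absolute changes, as were AXIN2, LEF1, NKD1 and SP5. Alternatives were other pseudocounts, filters, scalings and fold thresholds, no trend, fits of 2 groups, limma-voom on recovered reads, and leaving out each library.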

Additional observations from a re-analysis of the deposited data

Results flagged for a closer look

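Among the 38 tested members in the JQ1 group, the only group with 4 libraries, 1 library of 1 gene stood apart from the others. APC measured 2764 normalized counts in JQ1 replicate 18 and 2472 to 2502 in the other 3, so the gap to its neighbour was 0.893 of the range of the group, past Dixon's 95% critical value for 4 libraries. Chance alone flags about 1 group in 20, and 38 were examined.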

How the results depend on the processing

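The labels do not state any pairing of libraries across the 3 groups, so no paired analysis was run. The 7 higher DEGs with JQ1 numbered 3 among genes with a mean of at least 100 normalized counts, where the low genes were not tested, and 14 with no fold threshold. The 10 lower DEGs with JQ1 numbered 16 with no fold threshold and 6 with a fold over 2. With I-BET 762, the 7 higher DEGs numbered 3 at a mean of at least 100 and 14 with no fold threshold, and the 6 lower numbered 14 with no fold threshold. At a mean of at least 100, the lower DEGs WNT2B and WNT5A were not tested either. Rescaling to equal totals moved the median of all genes by -0.18 with JQ1 and -0.10 with I-BET 762 on the log2 scale. It gave 7 higher and 12 lower members with JQ1 and 6 higher and 8 lower with I-BET 762, and no DEG changed sign. Between the drugs, the 2 members higher with JQ1 became 1 at a mean of at least 100, after rescaling to equal totals or upper quartiles, and with a fold over 2, and 0 with JQ1 replicates 18 and 20 only, which was chosen after seeing the data. The 3 lower became 1 at a mean of at least 100, with no intensity trend and with a fold over 2, 5 after rescaling to equal totals, and 8 with no fold threshold. WNT4 and SFRP5 also lost this call with no filter on low values, at limma adjusted p-values of 0.0626 and 0.0612. DKK2 lost it with only the 2 groups compared, at 0.0515. Leaving out single libraries gave 7 to 7 higher and 8 to 11 lower with JQ1, 7 to 8 higher and 6 to 7 lower with I-BET 762, and 1 to 2 higher and 0 to 3 lower between the drugs, the 0 without I-BET 762 replicate 21. Of 1113 values over the 18 members that were a DEG in at least 1 comparison, 1057 kept their direction and side of the thresholds, 14 gained and 35 lost a call, and 7 changed sign. The last were small differences, and small log2 fold changes of members outside these 18, such as DVL2, TCF7L1, APC and DKK1, also changed sign under some settings. SFRP5 with I-BET 762 ranged from -0.0165 to 0.55 over single libraries left out. WNT10B between the drugs ranged from -0.0944 to 0.146 over single libraries left out, and was -0.0553 after rescaling to equal totals and -0.0243 with JQ1 replicates 18 and 20 only. FZD9 between the drugs was -0.0295 with those 2 libraries only, and TCF7L2 was 0.0334 with JQ1 replicates 17 and 19 only. Where a change of call does not follow from the threshold, filter or scaling itself, the cause was not tested. Depth limits the 17 members under the filter and low genes such as WNT5A, WNT9A, FZD8 and LEF1, whose intervals are wide.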
